A study of Mus musculus with 1 sample.

Results

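The mRNAs of 10 genes of the thioredoxin, peroxiredoxin and superoxide dismutase families were examined for their poly(A) tails in wild-type mouse cells. They were Txn1, Txn2, Prdx1, Prdx2, Prdx3, Prdx4, Prdx5, Prdx6, Sod1 and Sod2, chosen by name as the core enzymes of the thioredoxin system and of superoxide removal. The choice was made with earlier results of these data known. Reads belonged to a member when their gene identifier carried 1 of these symbols in GENCODE M21, and all 10 members were found among 12835 genes with reads. They held 1733 of 701976 nuclear transcripts, of which 670 came from replicate 1 and 1063 from replicate 2. Their tails ranged from short to long, with Txn1 and Prdx1 near the top of all genes and Prdx4 under the middle.

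PAIso-seq, which copies whole transcripts with their tails into circular cDNA and reads each circle in repeated passes, was applied to cells called 24h-EpiLCs, which are epiblast-like cells (EpiLCs) made from embryonic stem cells (ESCs) over 24 h. The cells were wild type, of the ICR mouse strain, and grew on Matrigel in N2B27 medium with activin A, bFGF and knockout serum replacement (KSR). The sample held 2 barcoded replicates, numbered here by barcode, and the labels do not say whether they came from separate cultures, so the spread between them may be technical. The study also made cells without the deadenylase Cnot8, which were not analysed here, so no condition was compared and no p-value was computed. Nuclear genes took 246316 transcripts in replicate 1 and 455660 in replicate 2.

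The labelled cell identity was set beside marker genes. The 5 formative markers (Fgf5, Otx2, Pou3f1, Dnmt3b and Dnmt3a) had 427 and 625 transcripts in replicates 1 and 2, and the 4 shared pluripotency markers had 295 and 410. The 6 naïve markers had 154 and 402 transcripts, of which Zfp42 alone took 129 and 372, and Prdm14 was at 0. Of 4 fibroblast feeder markers, Col1a1, Col1a2 and Postn were at 0 and Thy1 had 1 transcript in each replicate. The 4 endoderm markers had 0 and 1 transcripts, the 2 mesoderm markers had none, and the 2 neural markers had 5 and 0.

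Thioredoxins are small proteins that reduce disulfide bonds in other proteins and are themselves recharged by thioredoxin reductase with electrons from NADPH. Peroxiredoxins use a reactive cysteine to break down hydrogen peroxide and most of them are recharged by thioredoxin. Superoxide dismutases turn superoxide into hydrogen peroxide, which peroxiredoxins, catalase and glutathione peroxidases then remove. A poly(A) tail is added to an mRNA in the nucleus, bound by poly(A)-binding protein, and shortened in the cytoplasm by deadenylases.

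The annotated 3′ ends of the 3 longest-tailed members and of the shortest-tailed member, by pooled geometric mean, are shown, because they are the points to which the tails attach. Each line gives the last 30 transcribed bases of the principal coding model of GENCODE M21 (GRCm38), written 5′ to 3′ on the transcript strand, with the poly(A) signal nearest the end in capitals. The positions are chr4:57943373-57943402 on the minus strand for Txn1, chr4:116700793-116700822 on the plus strand for Prdx1, chr16:90226300-90226329 on the plus strand for Sod1 and chrX:155323918-155323947 on the minus strand for Prdx4, all at the end of the last exon in the 3′ UTR.
Txn1: gtattttaccttaataAATAAAcatggtcc
Prdx1: tgctctgcaaAATAAAtaggacttggccaa
Sod1: tcaaaccATTAAActgtaatctgaagagtt
Prdx4: ctcAATAAAggtcattgtgttattaccata

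This signal began 14 nt before the annotated end in Txn1, where an overlapping AATAAA began 18 nt before the end, 20 nt in Prdx1, 23 nt in Sod1 and 27 nt in Prdx4. AATAAA, the common form, stood in this window in 35.5% of 58793 coding transcripts of the annotation, and ATTAAA, the usual variant carried by Sod1, in 9.74%, both searched on the transcript strand only. These shares cover every coding model of the annotation and not only principal models like those shown, so they are not shares of principal ends. The end that each read used is not given in the data, so the tails cannot be tied to these ends one by one.

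Tails were summarised per gene by their geometric mean, non-A bases included, for nuclear genes holding 10 transcripts or more. By this measure, from long to short, the members ran Txn1, Prdx1, Sod1, Prdx3, Prdx6, Txn2, Prdx5, Sod2, Prdx2 and Prdx4. The median of the 10 members was 89.8 nt, and that of all 7146 tested nuclear genes was 76.4 nt, a difference of 13.4 nt. In replicate 1 the members stood 12.3 nt above all genes and in replicate 2 they stood 13.4 nt above (12.9 ± 0.791 nt, SD, n = 2). The size of this difference moved with the processing, from 7.78 nt with arithmetic means to 24.8 nt among genes with at least 100 transcripts. Among the 9 members that reached 10 transcripts in both replicates, the geometric mean of 7 exceeded the all-gene median in both replicates (Txn1, Prdx1, Sod1, Prdx6, Txn2, Prdx5 and Sod2), where 35% of all such genes did. Prdx4 was under it in both replicates, as were 35% of all such genes, Prdx2 was above it in replicate 1 and under it in replicate 2, and Prdx3 had too few transcripts to enter. These shares cover all genes with 10 or more transcripts in both replicates and are not matched to the members in depth. Such a call can depend on depth.

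**Figure D1:**
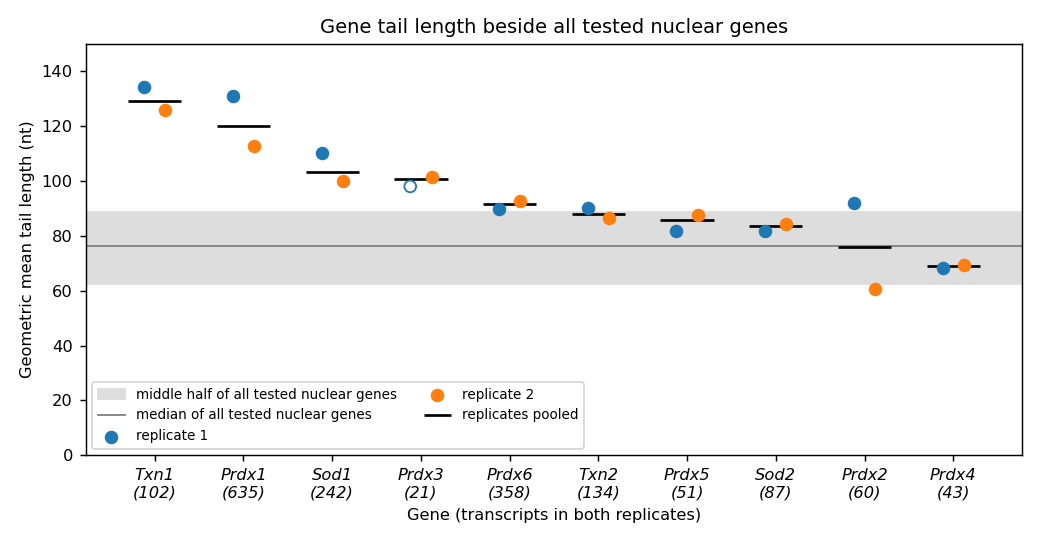
Geometric mean tail length in nt (y axis) of each member in replicates 1 and 2 (points) and with replicates pooled (black bars), in order of length, with the number of transcripts under each symbol. The open point marks the 4 transcripts of Prdx3 in replicate 1; the grey line is the median of all tested nuclear genes at 76.4 nt and the grey band spans their quartiles from 62.4 to 88.6 nt, and 5 members stand above the band when pooled.

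Txn1 (ENSMUSG00000028367, GRCm38 chromosome 4, 57943373 to 57956411, minus strand), the cytosolic thioredoxin, had the longest tails, with a geometric mean of 134.4 nt in replicate 1 (38 transcripts) and 126.1 nt in replicate 2 (64 transcripts). These values lay above those of 99.5% and 99.3% of the genes tested in the same replicate. The median was 141 nt (95% interval 123 to 155) in replicate 1 and 132.5 nt (118 to 146) in replicate 2, so the replicates overlapped. All intervals of medians are exact order-statistic intervals, those of shares are Wilson intervals and those of levels are Poisson intervals. Beside a count of 0, the share it allows is 3 counts of the total, which is tighter than the Wilson limit. Since reads were amplified without molecular identifiers, intervals and limits cover counting error only. Txn1 tails also varied least among the members, with a standard deviation of 0.46 on the log2 scale over single transcripts. Prdx5 followed with 0.787. The value of 1.26 for all nuclear transcripts also holds the differences between genes, so it is no measure of the spread within 1 gene. Of 102 tails, 1 had under 31 nt and 90.2% (82.9 to 94.6) had over 90 nt, where 50.6% of all nuclear tails did.

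The genes with the tail distribution most like that of Txn1 were sought among 1365 nuclear protein-coding genes with at least 100 transcripts, by the largest gap between cumulative distributions. They were Flna (filamin A) with a gap of 0.0831, Actb (β-actin) with 0.0878 and Cyb5r3 (a cytochrome b5 reductase) with 0.101, while the median gap over the compared genes was 0.448. Their geometric means were 108, 122 and 113 nt, each under the 129 nt of Txn1. With 102 transcripts of Txn1 and no error computed for these gaps, the order of these genes is not settled.

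Txn2 (ENSMUSG00000005354, chromosome 15, 77915047 to 77929006, minus strand), the mitochondrial thioredoxin, had a geometric mean of 90.3 nt in replicate 1 (51 transcripts) and 86.5 nt in replicate 2 (83 transcripts). These replicates were close, and the pooled value of 87.9 nt was above that of 73.9% of all genes. Its pooled median of 96 nt (86 to 106) did not overlap the 137 nt (123 to 146) of Txn1, so the thioredoxins of the cytosol and of the mitochondrion were apart in tail length. No Txn2 tail among 134 had over 200 nt, which allows a share of up to 2.24%, and 43.3% (35.2 to 51.7) had 31 to 90 nt, beside 38.8% of all nuclear tails and 8.82% (4.71 to 15.9) of Txn1 tails. Txn2 was thus near the background in this class and Txn1 under it.

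Prdx1 (ENSMUSG00000028691, chromosome 4, 116685544 to 116700822, plus strand), a cytosolic 2-cysteine peroxiredoxin, was the best covered member with 276 and 359 transcripts. Its geometric mean was 130.9 nt in replicate 1 against 112.6 nt in replicate 2, while its medians of 140 nt (134 to 146) and 139 nt (132 to 144) nearly coincided. The replicates therefore differed among the shorter tails and hardly at the median. Tails of 1 to 5 nt were 0 of 276 in replicate 1, which allows up to 1.09%, and 5 of 359 in replicate 2, or 1.39% (0.596 to 3.22), and tails of 31 to 90 nt were 11.2% (8.03 to 15.5) and 20.1% (16.2 to 24.5). Over all nuclear transcripts, tails of 1 to 5 nt were 1.52% in replicate 1 and 2.75% in replicate 2. The longest member tail, of 293 nt, was a Prdx1 tail, and 35 of its 635 tails had over 200 nt.

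**Figure D2:**
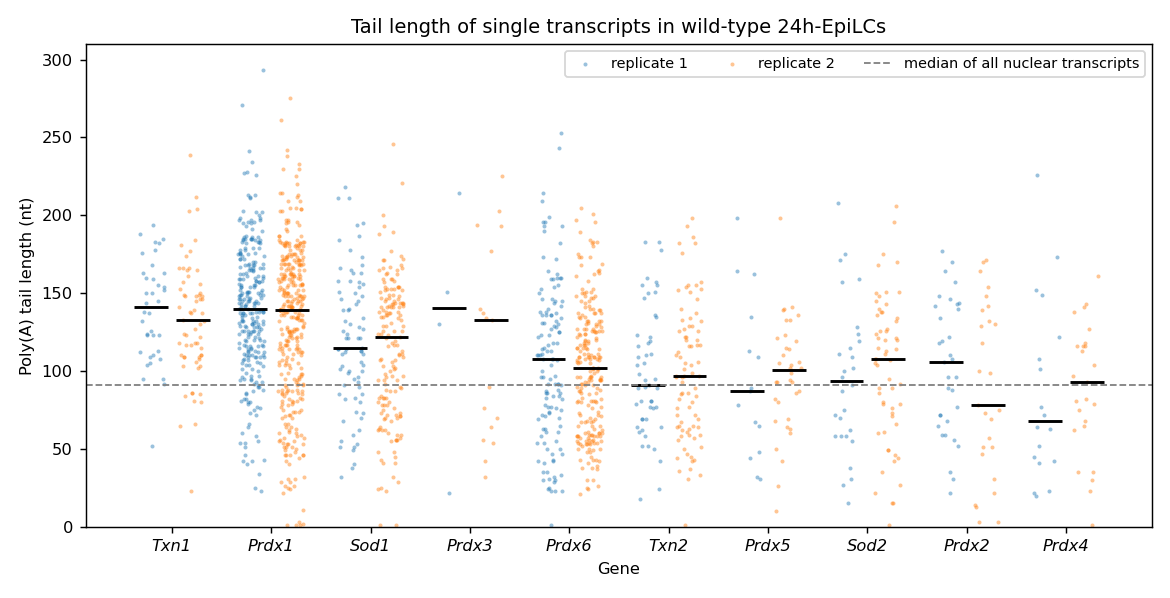
Tail length in nt (y axis) of every transcript of the 10 members, with replicate 1 at the left and replicate 2 at the right of each symbol. Each point is 1 transcript, black bars are the medians of the replicates and the dashed line is the median of all nuclear transcripts at 91 nt; the medians of Txn1, Prdx1, Sod1 and Prdx3 sit between 115 and 141 nt, and those of Prdx4 at 68 and 93 nt.

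Prdx6 (ENSMUSG00000026701, chromosome 1, 161240112 to 161251219, minus strand), the 1-cysteine peroxiredoxin, which also acts on phospholipids, had 128 and 230 transcripts. Its geometric means in replicates 1 and 2 were 89.8 and 92.6 nt, with medians of 108 nt (92 to 118) and 102 nt (94 to 109). The replicates overlapped, and the pooled median of 104.5 nt (95 to 109) lay apart from the 139 nt (135 to 143) of Prdx1.

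Prdx3 (ENSMUSG00000024997, chromosome 19, 60864051 to 60874556, minus strand), the mitochondrial 2-cysteine peroxiredoxin, was the least covered, with 4 and 17 transcripts. Its geometric means were 98.0 and 101.5 nt in replicates 1 and 2, and the pooled median of 133 nt had an interval of 64 to 177 nt. Its place among the members is therefore not settled by these data, since that interval overlapped those of all 9 others.

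Prdx5 (ENSMUSG00000024953, chromosome 19, 6906697 to 6910106, minus strand), a peroxiredoxin found in mitochondria, peroxisomes and the cytosol, had a geometric mean of 81.7 nt in replicate 1 (15 transcripts) and 87.8 nt in replicate 2 (36 transcripts). Its medians of 87 nt (48 to 135) and 100.5 nt (86 to 114) overlapped. None of its 51 tails had under 6 nt or over 200 nt, and each of these zeros allows a share of up to 5.88%.

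Prdx4 (ENSMUSG00000025289, chromosome X, 155323918 to 155340754, minus strand), the peroxiredoxin of the endoplasmic reticulum and secretory pathway, had the shortest tails when replicates were pooled, while in replicate 2 those of Prdx2 were shorter. Its geometric mean was 68.4 nt in replicate 1 (18 transcripts) and 69.2 nt in replicate 2 (25 transcripts), under the all-gene medians of 78.0 and 76.8 nt. The replicates were close on this measure, although their medians were 68 nt (42 to 122) and 93 nt (68 to 116). Tails under 31 nt made up 6 of its 43 tails, or 13.95% (6.56 to 27.3), beside 10.6% of all nuclear tails, which lies inside that interval, and 2.36% (1.44 to 3.86) of Prdx1 tails. The genes with the most similar distributions, among 1366, were Dnmt3a, a DNA methyltransferase, with a gap of 0.0504, Atp1b3, a sodium pump subunit, with 0.0507, and Epas1, a hypoxia-inducible factor, with 0.0594, while the median gap was 0.141. With 43 transcripts of Prdx4 and no error computed for these gaps, the order of the nearest genes is not settled.

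Prdx2 (ENSMUSG00000005161, chromosome 8, 84969587 to 84974834, plus strand), a cytosolic 2-cysteine peroxiredoxin abundant in red blood cells, had the widest spread between replicates. Its geometric mean was 91.9 nt in replicate 1 (33 transcripts) and 60.5 nt in replicate 2 (27 transcripts), a mean of 76.2 ± 22.2 nt (SD, n = 2). Replicate 1 was thus the longer and stood above 77.4% of genes tested there, while replicate 2 stood above 24.0%. The medians of 106 nt (72 to 134) and 78 nt (51 to 132) nevertheless overlapped. Of 27 tails in replicate 2, 5 had under 31 nt and 2 of these had 3 nt, while 1 of 33 tails in replicate 1 had under 31 nt.

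Prdx2 was also the member with transcripts assigned to a copy of its coding sequence. The processed pseudogene Tdpx-ps1 (ENSMUSG00000082431, GRCm38 chromosome 1, 99790429 to 99791025, minus strand) matches all 597 coding bases of Prdx2 with 96.3% identity, and 30 transcripts of replicate 1 and 55 of replicate 2 were assigned to it. These 85 transcripts were 58.6% of those on Prdx2 and Tdpx-ps1 together. Their geometric mean was 126 nt in replicate 1 against 108 nt in replicate 2, above the Prdx2 values of the same replicates, and none of them had 1 to 5 nt. The pooled medians were 121 nt (102 to 138) for Tdpx-ps1 and 97.5 nt (72 to 122) for Prdx2, which overlapped. With these transcripts added, Prdx2 had geometric means of 106.8 and 89.5 nt in replicates 1 and 2, and 8 members instead of 7 lay above the all-gene median in both replicates. How the transcripts of the gene and of its copy were divided by the mapping was not tested. Of 12 pseudogene copies found for Txn1, Prdx1, Prdx2, Prdx6 and Sod1, none other held transcripts.

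**Figure D3:**
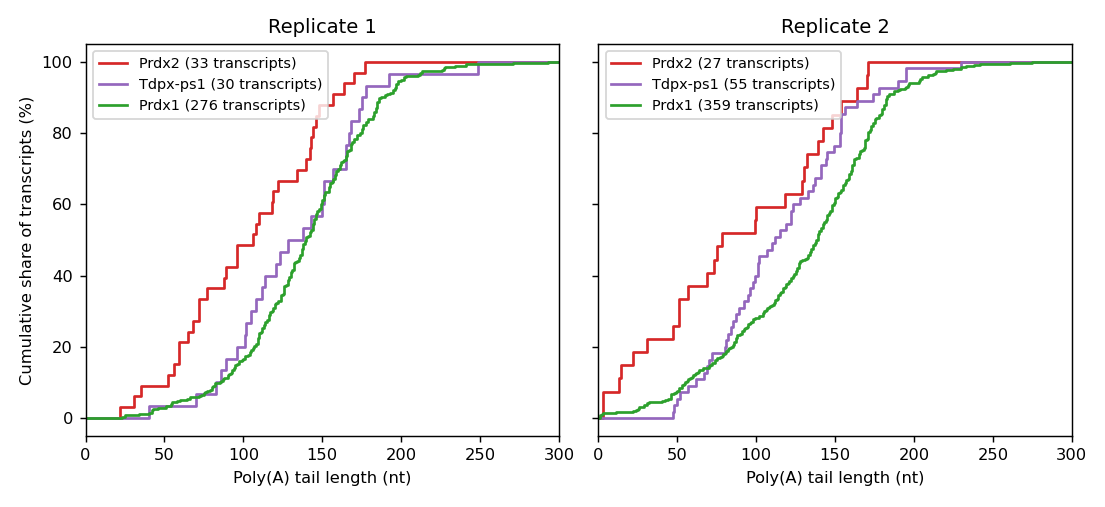
Cumulative share of transcripts in percent (y axis) against tail length in nt (x axis) for Prdx2, its processed pseudogene Tdpx-ps1 and Prdx1, in replicate 1 (left) and replicate 2 (right). The Prdx2 line lies at the left of the other lines over most of its range, with 2 of 27 tails at 3 nt in replicate 2, and Tdpx-ps1 runs close to Prdx1 in replicate 1 and mostly between Prdx2 and Prdx1 in replicate 2.

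Exons of Prdx2 also overlapped exons of Junb by 173 bases and of Rnaseh2a by 177 bases on the opposite strand, and exons of Prdx5 overlapped those of Trmt112 by 409 bases. Rnaseh2a had 70 transcripts, Trmt112 had 18 and Junb had none, and no overlap lay at the annotated 3′ end of the member. Whether strand was used when genes were assigned is not given in the sources used here.

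Sod1 (ENSMUSG00000022982, chromosome 16, 90220754 to 90226329, plus strand), the copper and zinc superoxide dismutase of the cytosol, had a geometric mean of 110.4 nt in replicate 1 (79 transcripts) and 100.2 nt in replicate 2 (163 transcripts). Its medians of 115 nt (106 to 130) and 122 nt (107 to 135) overlapped, and the pooled geometric mean of 103 nt was above that of 92.2% of all genes. Tails under 31 nt were 0 of 79 in replicate 1, which allows up to 3.80%, and 6 of 163 in replicate 2.

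Sod2 (ENSMUSG00000006818, chromosome 17, 13006846 to 13040063, plus strand), the manganese superoxide dismutase of mitochondria, had a geometric mean of 82.0 nt in replicate 1 (28 transcripts) and 84.3 nt in replicate 2 (59 transcripts). Its medians were 93.5 nt (62 to 115) and 108 nt (89 to 121), and the replicates overlapped. The pooled geometric mean of 83.6 nt was under that of Sod1 in both replicates, but the pooled medians of 105 nt (87 to 115) and 121 nt (111 to 129) overlapped. The annotated transcript of Sod2 ends in 10 A bases, and since tails were extended into adjoining A runs, part of these bases may be counted as tail, which was not tested.

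Neighbours in the order of tail length were mostly not apart. Among the 9 neighbouring pairs, the intervals of the medians were separate only for Prdx1 (135 to 143 nt) and Sod1 (111 to 129 nt), and for 6 pairs the order of the geometric means changed between the replicates. Of all 45 pairs, 16 had separate intervals. The same count over pairs of all genes was not made. Separation also depends on depth, and Prdx3 with 21 transcripts was apart from none. Prdx1 was longer than 7 members, Txn1 than 6 and Sod1 than 3, while Txn2, Prdx5 and Prdx6 were each shorter than Prdx1, Txn1 and Sod1, and Prdx2, Prdx4 and Sod2 were shorter than Prdx1 and Txn1. The interval of the pooled median lay wholly above 89 nt, the median of all gene medians, for 4 of 10 members (Txn1, Prdx1, Sod1 and Prdx6), as it did for 12.4% of all genes. This call too depends on depth. It held for Prdx6 at 104.5 nt (358 transcripts) and not for Sod2 at 105 nt (87 transcripts). Of the 7146 genes, 1517 had at least 100 transcripts, so the 2 shares are not matched in depth. The intervals of the replicate medians did not overlap for 0 of 9 members and for 1.03% of all such genes.

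By the textbook location of the protein, the mitochondrial members Txn2, Prdx3 and Sod2 had a median of 87.9 nt and the cytosolic members Txn1, Prdx1, Prdx2, Prdx6 and Sod1 had 103 nt. Mitochondrial members were 15.4 nt shorter when pooled, with a difference of -24.2 nt in replicate 1 and -13.6 nt in replicate 2 (-18.9 ± 7.495 nt, SD, n = 2). The members of these locations overlapped, since Prdx3 at 101 nt was above the cytosolic Prdx6 at 91.6 nt and Prdx2 at 76.1 nt. Prdx3 did not enter the value for replicate 1, where it had 4 transcripts. The size of the difference depended on single members, since it was -9.00 nt without Sod2, -9.55 nt without Txn1 or without Prdx1, and -23.9 nt without Prdx2 or without Prdx6.

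The distribution of single tails shows where the members differed from all nuclear transcripts. Over all member transcripts, median tails of 123 and 117 nt were found in replicates 1 and 2, where all nuclear transcripts had 91 nt in each. Prdx1 supplied 36.6% of these transcripts and Prdx6 20.7%, so the pooled values lean on them. Tails of 1 to 5 nt were 13 of 1733, or 0.75% (0.439 to 1.28), beside 2.32% of all nuclear tails, and tails of 6 to 30 nt were 2.83% (2.15 to 3.72) beside 8.25%. By replicate, tails of 1 to 5 nt were 1 of 670 and 12 of 1063, and they were spread over Prdx1 (5), Prdx2 (2), Sod1 (2), Txn2, Prdx4, Prdx6 and Sod2 (1 each).

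**Figure D4:**
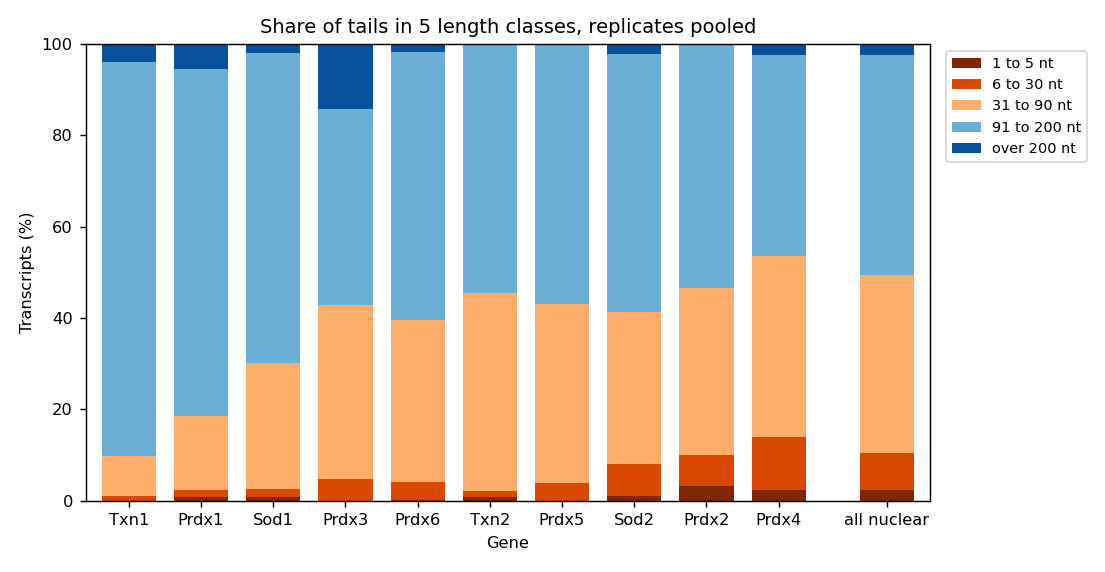
Share of transcripts in percent (y axis) in 5 classes of tail length for each member with replicates pooled, in order of geometric mean, and for all nuclear transcripts at the right. Tails over 90 nt, the upper parts of the bars, run from 90.2% in Txn1 to 46.5% in Prdx4, beside 50.6% of all nuclear transcripts.

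Bases other than A were found in 177 of 1733 member tails, or 10.2% (8.87 to 11.7), beside 10.5% of all nuclear tails. By replicate the shares were 12.1% (9.83 to 14.8) and 9.03% (7.45 to 10.9) in the members and 12.2% and 9.55% over all nuclear transcripts. The intervals of all member tails together overlapped between the replicates. Prdx1 had 39 of 276 tails, or 14.1% (10.5 to 18.7), in replicate 1 and 23 of 359, or 6.41% (4.31 to 9.43), in replicate 2. These intervals were apart, while those of every other member overlapped. Without Prdx1 the shares of the members were 10.7% (7.98 to 14.1) and 10.4% (8.33 to 12.8). Sod1 had the lowest share, with 8 of 242 tails, or 3.31% (1.68 to 6.39), and was low in both replicates with 3 of 79 and 5 of 163. Txn1 had the highest when pooled, with 18 of 102 tails, or 17.6% (11.5 to 26.2), namely 7 of 38 and 11 of 64, but Prdx5 (3 of 15) and Txn2 (10 of 51) were higher in replicate 1 and Prdx2 (5 of 27) in replicate 2. The pooled intervals of Sod1 and Txn1 did not overlap, and the share of all nuclear tails lay above that of Sod1.

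In Txn1, 6 of the 18 tails with a non-A base had a T as the first base after the mRNA body, 3 in each replicate, which was 5.88% (2.72 to 12.2) of its tails beside 0.617% of all nuclear tails. Prdx5 had 3 such tails among 51, or 5.88% (2.02 to 15.9), 1 in replicate 1 and 2 in replicate 2. Prdx1, Sod1 and Sod2 had 1 such tail each and the other 5 members had none. The start of a tail was set by the mapping, and whether these T bases belong to the tail was not tested. A single Prdx1 tail of replicate 2, with 230 nt and 16 C bases, was the only member tail with 5 or more non-A bases.

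Tails of 6 to 30 nt ending in T are shown in full, because a terminal U on a short tail is known to mark mRNAs for decay. There were 4 among the 49 member tails of this length, or 8.16% (3.22 to 19.2), beside 15.2% of all nuclear tails of this length. They are written 5′ to 3′ as read in DNA letters, where T stands for U of the RNA, with the terminal T bases in capitals.
Prdx6 in replicate 1: aaaaaaaaaaaaaaaaaaaaaaTT
Prdx6 in replicate 1: aaaaaaaaaaaaaaaaaaaaaaaaaaaaT
Prdx4 in replicate 1: aaaaaaaaaaaaaaaaaaaT
Sod2 in replicate 2: aaaaaaaaaaaaaaaaaaaaaT

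The remaining short tails ended in A, among them all 10 of Prdx1 and all 4 of Prdx2 and of Sod1. Tails over 30 nt ended in T in 39 of 1671 cases, or 2.33% (1.71 to 3.17), beside 1.97% of all nuclear tails of that length. The short tails of members are too few to separate their share from that of all genes.

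The level of each member was expressed as counts per 1000000 nuclear transcripts (CPM), with 1 read standing for 1 transcript and no division by length. Prdx1 was the highest, at 1121 CPM in replicate 1 (992 to 1261) and 788 CPM in replicate 2 (708 to 874), and was above 98.3% of all tested genes. Prdx6 followed with 519.7 (434 to 618) and 505 (442 to 574), then Sod1 with 321 (254 to 400) and 358 (305 to 417). Replicate 1 was the higher for Prdx1, and the replicates of Prdx6 and Sod1 overlapped.

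The thioredoxins were lower. Txn2 had 207 (154 to 272) and 182 (145 to 226) CPM and Txn1 had 154 (109 to 212) and 140.5 (108 to 179). Thus the thioredoxin with the longer tails was not the one with more transcripts, although the intervals overlapped in each replicate. Sod2 had 114 (75.5 to 164) and 129 (98.6 to 167).

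Prdx2 had 134 (92.2 to 188) and 59.3 (39.0 to 86.2), with replicate 1 the higher and the intervals apart. With the transcripts on Tdpx-ps1 added, an alternative chosen after seeing the data, it had 256 (197 to 327) and 180.0 (143 to 223), and the intervals overlapped. Prdx5 had 60.9 (34.1 to 100.4) and 79.0 (55.3 to 109), and Prdx4 had 73.1 (43.3 to 115) and 54.9 (35.5 to 81.0). Prdx3 was the lowest, at 16.2 (4.42 to 41.6) and 37.3 (21.7 to 59.7). In Prdx5, Prdx4 and Prdx3 the replicates overlapped. The exact binomial interval of the ratio of replicate 2 to replicate 1 left out 1 for 2 of 10 members, Prdx1 at 0.703 (0.599 to 0.826) and Prdx2 at 0.442 (0.256 to 0.759), as it did for 20.7% of all genes. Together the members made 2720 CPM in replicate 1 and 2333 in replicate 2 (2526 ± 274, SD, n = 2).

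**Figure D5:**
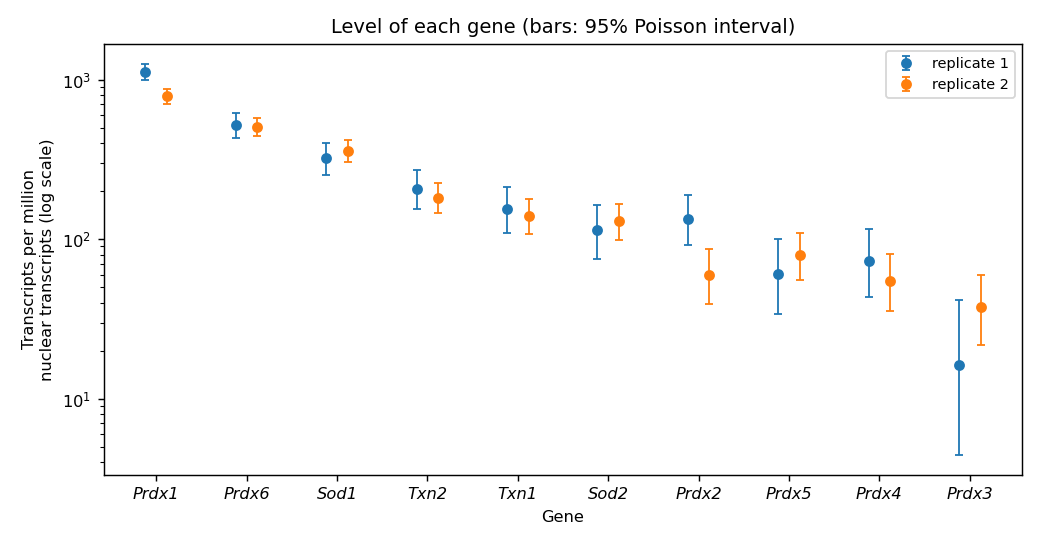
Transcripts per 1000000 nuclear transcripts (CPM, y axis, log scale) of each member in replicates 1 and 2, in order of level, with 95% Poisson intervals as bars. Levels run from 1121 for Prdx1 in replicate 1 to 16.2 for Prdx3 in replicate 1, and the bars of the replicates are apart for Prdx1 and Prdx2.

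Across the 10 members, Spearman's rho of level with geometric mean tail was 0.539, of coding length with tail it was -0.515, and of 3′ UTR length with tail it was 0.0424. These are descriptions over 10 genes of the same libraries. The 3′ UTR of the chosen model had 532 nt in Txn1, 1566 nt in Prdx1 and 72 nt in Sod1, so the 3 longest-tailed members spanned a wide range, and the shortest-tailed, Prdx4, had 60 nt.

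Genes that work with these enzymes were taken from a list of 49, likewise drawn up with earlier results of these data known. Of these genes, 3 (Sod3, Slc7a11 and Nnt) were at 0. Of the rest, 38 reached 10 transcripts, and the median of their geometric means was 86.4 nt, beside 76.4 nt for all genes. Geometric means were above the all-gene median in both replicates for 22 of the 32 genes that reached 10 transcripts in both replicates, under it in both for 4, and on different sides for 6, where 35% of all such genes were above in both. This share is not matched to the partner genes in depth. Above in both were 5 of 9 thioredoxin partners and relatives, 6 of 7 glutathione and glutaredoxin genes, 2 of 3 genes of peroxide and superoxide removal and repair, 4 of 6 regulators and their classic targets, and 5 of 7 genes of NADPH supply.

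Among the 16 partner genes that had 30 or more transcripts in both replicates, the longest tails belonged to Park7, a redox-sensing chaperone, Taldo1, the transaldolase of the pentose phosphate pathway, and Gpx1, a selenium-dependent glutathione peroxidase. Park7 had 114 and 110.0 nt in replicates 1 and 2, Taldo1 had 117 and 108 nt, and Gpx1 had 103 and 103 nt, all above the all-gene median in both. With replicates pooled, Park7 and Taldo1 at 111 nt each lay between Prdx1 and Sod1, and Gpx1 at 103 nt beside Sod1. The shortest belonged to Nfe2l2, the transcription factor NRF2 that drives antioxidant genes, with 53.3 and 65.3 nt, to Txndc12, a thioredoxin-like protein of the endoplasmic reticulum, with 84.9 and 67.3 nt, and to Cat, the catalase, with 80.02 and 74.2 nt. Nfe2l2 was under the all-gene median in both replicates and its pooled median of 70 nt (52 to 90) was under the medians of the 10 members, although the intervals overlapped for some of them such as Prdx4, whereas Txndc12 and Cat lay on different sides in the replicates. The partners with under 10 transcripts were Txnrd2 with 8, Gpx3 with 8, Gpx4 with 6, Gpx7 with 6, Glrx with 4, Msrb2 with 3, and Gpx8 and Msra with 1 each.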

How the data were processed

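PAIso-seq libraries of wild-type 24h-EpiLCs were analysed, with 2 barcoded replicates in 1 sample and with 378458 and 635217 reads. The authors called consensus reads, split them by barcode, mapped them to mm10 with minimap2 (2.17), took the soft-clipped 3′ bases as tails, extended into adjoining A runs, and assigned genes with featureCounts (2.0.1). The deposited table holds, for each read, the number of passes and the raw count of each base in its tail, which added up to the deposited tail sequence in all reads. Tail length was the sum of the base counts. The paper also describes removing repeated reads, reads without a tail and tails with few A bases near the start. Shares of short tails and of non-A bases therefore refer to the tails that were kept. Reads with at least 7 passes were used (354259 and 593361). Of 12962 gene identifiers, 12955 were found in GENCODE M21 (GRCm38), and mitochondrial genes, 18.3% and 9.23% of assigned transcripts, were kept apart. A count of 3 stands for 12.2 and 6.58 transcripts per 1000000 in replicates 1 and 2. Of the member transcripts, 120 came from wells that gave more than 1 transcript.

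Gene tail lengths were geometric means over at least 10 transcripts. Intervals were at 95%: exact order-statistic for medians, Wilson for shares, Poisson for counts. With 1 group no test was made. Copies of members were sought by aligning coding sequences of the principal models to annotated pseudogene transcripts with blastn 2.17.0 (at least 80% identity over 100 bases). The members and the lists were chosen with earlier results of these data known. The genes named were the 10 members, the 3 longest and 3 shortest of the partner list among those with 30 or more in both replicates, partners with under 10 transcripts by count, the 3 genes nearest to the longest-tailed and shortest-tailed member, and pseudogene copies with at least 10 transcripts. Alternatives changed the pass filter, the shortest tail, the measure of length, the summary per gene, the genes compared with, wells and replicates. The scripts were tested on simulated tails. The work used pandas 2.3.3, scipy 1.17.1 and numpy 2.4.6 under Python 3.11.15, with plots by matplotlib 3.10.9.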

Additional observations from a re-analysis of the deposited data

Results flagged for a closer look

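Transcripts were assigned to a processed pseudogene outside the member list. Tdpx-ps1, annotated with a near-identical copy of the Prdx2 coding sequence, took 58.6% of the transcripts assigned to Prdx2 and to itself, in both replicates with longer tails by geometric mean than Prdx2.

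Reads with under 7 passes, which entered no value above, made up 4.57% of all member reads. There were 83 of them, with a median tail of 114 nt. By member their share ran from 0 for Prdx3 and Prdx4 to 7.59% for Txn2.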

How the results depend on the processing

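No paired analysis was possible because the sample holds 1 group, so the replicate numbers pair nothing. The median of the members stayed above that of all genes under every alternative run. The median of the mitochondrial members likewise stayed under that of the cytosolic ones. Single members did not all follow these medians. The member median minus the all-gene median (13.4 nt) became 12.4 with at least 15 passes, 10.7 when tails under 6 nt were left out, 8.73 when those under 15 nt were, 15.75 with medians, 7.78 with arithmetic means, 24.8 for genes with at least 100 transcripts, 14.3 against protein-coding genes and, chosen after seeing the data, 17.7 with the Tdpx-ps1 reads added to Prdx2. Without a replicate it ran from 12.3 to 13.4 nt. The mitochondrial minus cytosolic difference (-15.4 nt) was -24.2 to -13.6 without a replicate and, in alternatives chosen after seeing the data, -23.9 without Prdx2 or without Prdx6, and at its smallest -9.00 without Sod2. Partner genes above the all-gene median in both replicates were 10 among genes with at least 100 transcripts, instead of 22 of 32, since fewer genes could be tested. The partners tested and the share of all genes were not counted at this depth, so the 10 shows no fall in proportion. Tails with bases other than A, each member weighted equally (11.5%), were 9.91% with at least 15 passes, 7.52% without the end bases and 10.2% with tails pooled, and 11.02% to 12.1% without a replicate. The share of tails of 1 to 5 nt (0.945%) was 0.0781% to 1.69% without a replicate. Member transcripts per 1000000 nuclear transcripts (2526) were 2170 with mitochondrial genes kept, and 2333 to 2720 without a replicate. Members above the all-gene median in both replicates were 5 to 8, beside 7 of 9 above, where 35% of all such genes were. Among genes with at least 100 transcripts they were 5, where only Txn1, Txn2, Prdx1, Prdx6 and Sod1 could be tested. The share of all genes was not counted for the alternatives. Of 101 alternatives for single members, 74 stayed within 1 SD of the replicates and 27 moved. This SD came from 2 replicates, whose single values were also among the alternatives. It ran from 0.578 nt for Prdx4 to 22.2 nt for Prdx2. The split therefore does not measure how stable the members were. Depth limits Prdx3, Prdx4, Prdx5 and Prdx2 most, with 21 to 60 transcripts each.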

Other observations

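Txnip, the thioredoxin inhibitor among the partner genes, was singled out after its values were seen. Its geometric mean was 101 nt in replicate 1 (14 transcripts) and 18.0 nt in replicate 2 (34 transcripts), and the pooled median was 55.5 nt (31 to 78). Srxn1, the sulfiredoxin that repairs over-oxidised peroxiredoxins, also chosen afterwards, had 68.0 and 73.3 nt in replicates 1 and 2, under the all-gene median in both.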
